A study of Homo sapiens and Homo sapiens
Mus musculus and Mus musculus with 200 samples.

Results

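The regions described here lie around 31 genes of neuronal and glial fate, the fates that cranial neural crest can take in place of mesenchyme: 4 proneural basic helix-loop-helix (bHLH) factors, 6 other neuronal transcription factors, 6 neuronal structural or RNA-binding products, 6 neural progenitor genes, 3 glial and Schwann cell precursor genes, 3 Notch pathway genes and 3 placodal or GDNF receptor genes. A region was one of the ATAC-seq peaks over which the study counted H3K27ac, the acetylated histone that marks active enhancers and promoters. It was a member where its midpoint was within 100 kb of an annotated transcript start of a listed gene, and it was given to the nearest of those genes. This gave 849 of 213151 regions, each between 501 and 3398 bp wide, and 440 of the 849 had the listed gene as their nearest protein-coding gene. Transcription factor peaks from the same windows were taken from the deposited peak lists. In the 6 TWIST1FV libraries, 512 of the 849 regions passed the filter on low counts and 337 did not.

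The H3K27ac data came from human cranial neural crest cells (hCNCC) derived from H9, an embryonic stem cell line. Each degradable line carried a tag on 1 endogenous transcription factor, which lets dTAGV-1, a small molecule, direct the tagged protein to degradation: TWIST1FV on TWIST1, ALX1FV on ALX1, PRRX1FV on PRRX1 and MSX1FNV on MSX1. ALX1FV ALX4- carried the ALX1 tag in cells without ALX4, and WT carried no tag. All 6 lines were sampled at 0, 3 and 24 h of dTAGV-1 (500 nM), with 2 replicates a group and 36 libraries in all. The treatment protocol names DMSO or dTAGV-1, and the 0 h samples are labelled only by the time. Both TWIST1FV replicates came from 1 clone, as did both MSX1FNV replicates, while the replicates of ALX1FV, PRRX1FV and ALX1FV ALX4- came from different clones. Nothing in the labels says that replicates were separate cultures, so p-values measure only the spread between these samples, which may be technical. HEK293, an embryonic kidney cell line, was harvested 24 h after transfection with factor plasmids, and RS4;11 is a lymphoblast line.

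As background, the neural crest is a migratory population of the vertebrate embryo. In the head it gives rise to bone, cartilage and connective tissue as well as sensory and autonomic neurons, Schwann cells and other glia. TWIST1 is a bHLH factor of head and limb mesenchyme that binds E-boxes, short sites of the form CANNTG, as a dimer with an E protein. The proneural factors NEUROG1, NEUROG2, NEUROD1 and NEUROD4 are bHLH factors that bind related E-boxes and drive neuronal differentiation. ALX, PRRX, MSX and PHOX2 factors are homeodomain proteins that bind TAAT-containing sites. The question asked was whether regions at the alternative crest fates gained H3K27ac when TWIST1 or another factor was removed.

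The sequences that carry the main contrast come first. Each line gives 201 bp (hg38, + strand) from 4 regions where H3K27ac fell after TWIST1 loss, centred on the WT TWIST1 peak summit, and from 4 regions where it rose, centred on the region midpoint. The last is the TWIST1 peak over the start region of DLL3, which did not pass the test and was added after its values were seen. Capitals mark the E-box CATATG, the E-box CAGATG with its reverse complement CATCTG, the E-box CAGCTG, the homeodomain site TAATTA, and the homeodomain site TAATTG with its reverse complement CAATTA.
NEUROD1, fell, intron of CERKL, chr2:181617885-181618085: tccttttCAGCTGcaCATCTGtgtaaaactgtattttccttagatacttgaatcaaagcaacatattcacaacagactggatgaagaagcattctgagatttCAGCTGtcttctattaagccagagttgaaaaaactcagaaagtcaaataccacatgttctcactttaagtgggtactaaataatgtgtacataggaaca
NEUROG2, fell, intron of NEUROG2-AS1, chr4:112536288-112536488: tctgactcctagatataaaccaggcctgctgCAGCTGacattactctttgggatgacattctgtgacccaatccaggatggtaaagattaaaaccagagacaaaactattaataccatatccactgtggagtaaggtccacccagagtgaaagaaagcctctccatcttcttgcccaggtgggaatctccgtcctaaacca
GFRA1, fell, intron of GFRA1, chr10:116242141-116242341: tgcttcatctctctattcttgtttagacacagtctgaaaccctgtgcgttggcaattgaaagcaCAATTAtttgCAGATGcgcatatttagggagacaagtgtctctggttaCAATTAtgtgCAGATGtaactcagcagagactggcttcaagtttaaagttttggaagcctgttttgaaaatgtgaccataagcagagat
PHOX2A, fell, intergenic, chr11:72254665-72254865: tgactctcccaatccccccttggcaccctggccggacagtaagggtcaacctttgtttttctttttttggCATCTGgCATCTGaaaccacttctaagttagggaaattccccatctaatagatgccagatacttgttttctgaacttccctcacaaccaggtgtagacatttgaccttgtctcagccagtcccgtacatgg
GFRA1, rose, intron of a long non-coding RNA, chr10:116279048-116279248: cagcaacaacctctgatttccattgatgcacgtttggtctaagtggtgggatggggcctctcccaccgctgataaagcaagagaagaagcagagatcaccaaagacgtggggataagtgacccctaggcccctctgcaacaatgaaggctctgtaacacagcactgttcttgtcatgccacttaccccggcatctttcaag
NEUROG1, rose, intron of SLC25A48, chr5:135488948-135489148: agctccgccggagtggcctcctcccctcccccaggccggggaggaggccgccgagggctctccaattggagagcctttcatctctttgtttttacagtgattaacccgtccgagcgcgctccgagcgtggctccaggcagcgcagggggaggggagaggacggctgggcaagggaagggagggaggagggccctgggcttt
S100B, rose, intergenic, chr21:46621593-46621793: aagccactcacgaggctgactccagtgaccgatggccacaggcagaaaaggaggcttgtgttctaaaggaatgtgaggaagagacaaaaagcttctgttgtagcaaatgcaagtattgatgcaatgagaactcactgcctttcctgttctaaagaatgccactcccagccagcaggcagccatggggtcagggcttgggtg
NEUROD1, rose, intergenic, chr2:181779458-181779658: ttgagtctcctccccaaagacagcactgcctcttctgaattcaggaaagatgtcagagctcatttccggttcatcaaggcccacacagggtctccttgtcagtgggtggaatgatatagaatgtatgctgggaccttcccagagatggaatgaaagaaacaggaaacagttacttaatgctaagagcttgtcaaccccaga
DLL3, start region, intergenic, chr19:39497728-39497928: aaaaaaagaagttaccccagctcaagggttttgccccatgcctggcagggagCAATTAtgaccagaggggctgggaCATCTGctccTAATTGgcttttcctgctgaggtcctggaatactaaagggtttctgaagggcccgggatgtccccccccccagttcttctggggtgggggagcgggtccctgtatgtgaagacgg

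The windows that fell are centred on TWIST1 summits and those that rose on region midpoints, so their motif content is not compared. In the GFRA1 intron, CAATTA at position 65 was followed after 4 bases by CAGATG at position 75, counted from 1 at the first base shown, and the arrangement recurred at positions 113 and 123. The DLL3 window held the same arrangement on the other strand, with CATCTG at position 77 and TAATTG at position 87. Any of these E-boxes with either homeodomain site 4 bases beyond it, TAATTA or else TAATTG read in the same direction, on either strand, stood in 3 of the 186 TWIST1 peaks at the listed genes (1.61%), those at DLL3, GFRA1 and NCAM1. It stood in 625 of all 42318 TWIST1 peaks (1.48%). Among the 186 summit windows, CAGATG or CATCTG was in 52.2%, against 43.9% of all TWIST1 summit windows. CAGCTG was in 31.7% against 27.5%, CATATG in 9.14% against 9.99%, TAATTA in 10.8% against 12.1% and TAATTG or CAATTA in 11.8% against 14.9%. In windows of the same length at region midpoints, CAGATG or CATCTG was found in 11 of the 39 member regions that fell at 24 h (28.2%), 1 of the 30 that rose (3.33%), 158 of all 849 members (18.6%) and 22.9% of all regions. CAGCTG was in 23.1% of those that fell, 6.67% of those that rose, 21.9% of members and 20.1% of all regions. CATATG was in 17.9%, 0 of 30, 3.65% and 4.71%. TAATTA was in 7.69%, 3.33%, 3.18% and 5.16% in the same order, and TAATTG or CAATTA in 15.4%, 3.33%, 4.83% and 8.11%. Motif shares were not taken over all regions that fell or rose, so the contrast between members that fell and rose has no background. A match describes these letters only.

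Total counts per H3K27ac library ranged from 5137169 to 9173063 over the 36 libraries, and from 7163998 to 8817125 in TWIST1FV. Of each library's counts, 0.517 to 0.622% fell in member regions. Levels below are CPM, counts scaled to a common library size after normalization by the trimmed mean of M-values (TMM). Crest identity was checked by H3K27ac at gene starts at 0 h, in CPM per kb of region, as the median over the 12 libraries of that time. All 9 crest genes had a region at a start, with medians from 21.5 (PAX3) to 122 (TFAP2A). The 4 neuroectoderm genes SOX1, LHX2, SIX3 and OTX2 had medians from 0 to 1.55, and the 4 endoderm and mesoderm genes from 0.442 to 1.5. Of the pluripotency genes, POU5F1 and NANOG had no start region, while LIN28A stood at 155 and DPPA4 at 14. The summed level of the 4 neuroectoderm start regions was 1.75 to 2.45 CPM in TWIST1FV at 0 h, 1.67 to 2.2 at 3 h and 2.18 to 2.3 at 24 h, so the ranges at 0 h and 24 h overlapped. For LIN28A and DPPA4 together it was 123 to 151 CPM at 0 h, 174 to 177 at 3 h and 171 to 200 at 24 h, against 140 to 142 at 0 h and 144 to 147 at 24 h in WT, and the LIN28A start rose at 24 h (log2 change 0.43, FDR 0.0485). The part of that shift in the results was not tested.

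Before treatment most of the 31 genes carried little H3K27ac at their starts. Of the 29 genes with a start region, 17 had a median under 3 CPM per kb, against a median of 6.41 over all 30063 regions within 1 kb of a start. The highest were EYA1 (86), NES (34.3), DLL3 (29.8), TUBB3 (16.1) and DLL1 (13), and the first 3 of these lay above the upper quartile of all such regions (22.6). The Schwann cell precursor genes were next, with ERBB3 at 9.15 (range 4.33 to 11.6) and NGFR at 8.74 (3.28 to 18), whose ranges overlap. The proneural starts were near 0, with NEUROD1 at 1.96, NEUROG2 at 0.608 and NEUROD4 at 0.561 CPM per kb, and NEUROG1 had no start region by this rule. OLIG2 had a median of 0, STMN2 of 0.246 and POU4F1 of 0.243.

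TWIST1 peaks lay around these genes about as often as around other genes: 28 of the 31 (90.3%) had a peak found in both WT lists within 100 kb of a start, as did 88.4% of all 20046 protein-coding genes. In WT cells at 0 h the 2 TWIST1 peak lists had 262 and 212 peaks in the windows, of 59282 and 49107 in all (0.442% and 0.432%). The TWIST1FV lists at 0 h were shorter and had 156 and 118, of 33479 and 25034 (0.466% and 0.471%). At 3 h of dTAGV-1 the TWIST1FV lists had kept 1.28% (2 of 156, 95% Wilson interval 0.352 to 4.55%) and 3.39% (4 of 118, 1.33 to 8.39%) of their own 0 h peaks. In WT cells 75.2% and 81.1% were kept over the same 3 h. The difference in means was -75.8 percentage points, with all values of one line outside the range of the other. An exact two-sided permutation test of 2 against 2 lists gave p = 0.333, the smallest it can give. Of the peaks found in both WT lists, 186 lay at the listed genes, with none at NEUROD4, POU4F1 or ISL1. Their median fold enrichment, the authors' value per peak, was 10, against 11.4 for all 42318 such peaks. Of the 186, 2 (1.08%) overlapped the TWIST1FV 3 h list of replicate 1, as did 1.94% of all 42318, so the loss was not particular to these loci. A TWIST1 peak covered 179 of the 849 regions (21.1%, 95% Wilson interval 18.5 to 24%), against 19.8% of all regions. With 1 WT list left out the share was 23.8% or 28.4%, against 22.1% or 25.3% of all regions. The order turned with peaks of -log10 q of at least 5 (16.8% against 17.3% of all) and within 50 kb (19.6% against 19.8%). The crest factor AP2a, by the Novus or the Cell Signaling antibody, covered 19.4% and 20% of the member regions, against 10.8% and 11.9% of all regions. Among the 186 TWIST1 peaks, 31.7% (25.5 to 38.7%) and 32.3% (26 to 39.3%) overlapped an AP2a peak, against 21.3% and 23.3% of all TWIST1 peaks. Intervals cover counting error only.

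**Figure D1:**
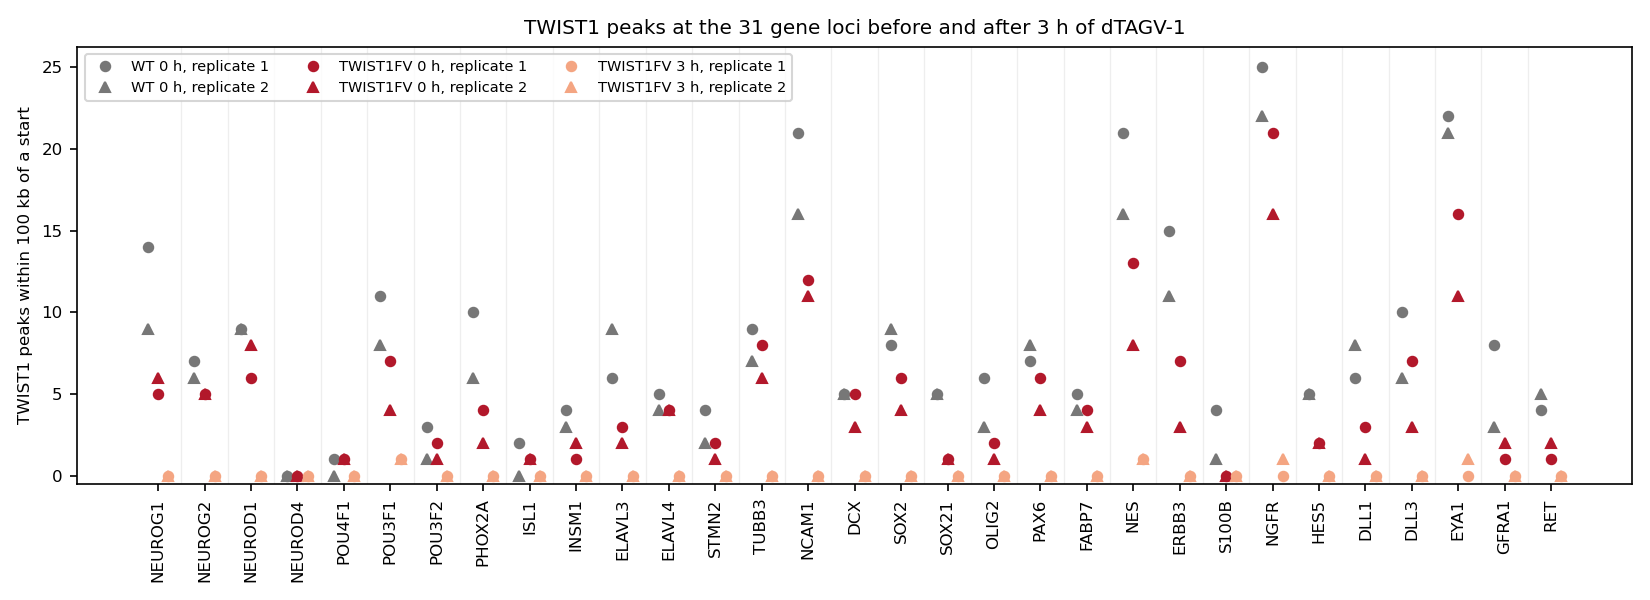
Number of TWIST1 peaks within 100 kb of a start of each of the 31 genes (vertical axis), in both replicates of WT at 0 h (grey), TWIST1FV at 0 h (dark red) and TWIST1FV at 3 h of dTAGV-1 (light red). NGFR, EYA1, NCAM1 and NES had the most peaks in WT, and at 3 h no gene had more than 1 peak in either TWIST1FV list.

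NGFR had 25 and 22 TWIST1 peaks in the 2 WT lists, EYA1 22 and 21, NCAM1 21 and 16, and NES 21 and 16, as the plot of TWIST1 peaks by gene shows. At 3 h in TWIST1FV, the peaks listed were at POU3F1 and NES in both replicates and at NGFR and EYA1 in replicate 2. S100B had no TWIST1 peak in either TWIST1FV list at 0 h and 4 and 1 in the WT lists.

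After TWIST1 loss, the loci did not move as a block. H3K27ac rose at some regions of 14 genes and fell at some regions of 17 genes by 24 h, and 7 genes (NEUROD1, TUBB3, DCX, ERBB3, NGFR, EYA1 and GFRA1) had both. At 3 h, 8 of 512 tested member regions rose (1.56%, background 1.01% of all 123361 regions tested) and 15 fell (2.93%, background 4.28%). At 24 h, 30 rose (5.86%, background 4.28%) and 39 fell (7.62%, background 9.49%). The shares of members were close to the background in both directions. The calls are edgeR quasi-likelihood tests at a Benjamini-Hochberg adjusted p (FDR) under 0.05 over all regions tested. The median log2 change of the tested members was 0.115 at 3 h and 0.186 at 24 h, against 0.0228 and 0.033 for all regions, and 62.3% of members against 51.9% of all regions were above 0 at 24 h. By 24 h, 7 of the 8 early risers and 14 of the 15 early fallers had kept their call, and none was called with opposite signs. No region was called at either time at POU3F2, ISL1, STMN2, SOX2, INSM1, HES5 or DLL3. In bulk chromatin, more cells with the mark and more mark per cell cannot be told apart.

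These counts depended on scaling and on single libraries. Scaling by library size alone, without TMM, moved the median of all regions to 0.111 at 3 h and 0.158 at 24 h and that of the members to 0.203 and 0.311, and gave 11 regions higher and 12 lower at 3 h, and 44 higher and 34 lower at 24 h. DESeq2 gave 10 higher and 12 lower at 3 h. Regions that rose by 3 h numbered 14 if TWIST1FV 24 h replicate 1 was left out, 13 if 24 h replicate 2 was, and 16 if 3 h replicate 2 was. Among the regions named below, the 24 h call was lost without 0 h replicate 1 at POU4F1 (1.38, FDR 0.0799), without 24 h replicate 2 in the DCX intron (-1.53, FDR 0.128), and without 0 h or 24 h replicate 2 at NEUROG1 chr5:135488798-135489298 (2.57, FDR 0.0509, and 2.26, FDR 0.063). At 3 h, 1 or more such omissions ended the calls at POU4F1, at FABP7, at both NGFR regions, at all 3 GFRA1 regions and at the NEUROD1 region chr2:181779308-181779808. Regions that fell numbered 8 for the early time if 0 h replicate 1 was left out, and 24 for the late time if 24 h replicate 2 was.

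Summed over each gene's whole window, 6 of the 31 loci were higher at 24 h (background 4.24% of 19582 gene windows), 4 were lower (background 13.4%) and 21 did not pass the test. The 6 were S100B, SOX21, NEUROD1, GFRA1, POU4F1 and TUBB3, and the 4 were ELAVL4, FABP7, NCAM1 and PAX6. At 3 h none was higher (background 1.7%) and 3 were lower (background 9.08%), namely ELAVL4, NCAM1 and FABP7. At an unadjusted p under 0.05, 10 of the 31 differed at 3 h in either direction, as did 4940 of all 19582 gene windows. DESeq2 called 1 locus higher at 3 h. The median log2 change of the 31 loci was 0.0118 at 3 h and 0.0582 at 24 h, against 0.00732 and 0.00566 for all gene windows. Without TWIST1FV 0 h replicate 1, or without 0 h replicate 2, 2 loci were higher and 2 lower at 24 h. Leaving out 24 h replicate 1 gave 3 higher loci, and leaving out 24 h replicate 2 gave 3 higher and 2 lower. At 24 h S100B, NEUROD1, NCAM1 and FABP7 were called in all 6 fits that left out 1 TWIST1FV library. POU4F1, SOX21 and ELAVL4 were called in 3 of the 6, and GFRA1, TUBB3 and PAX6 in 2 of the 6. For the earlier time, 1 locus was lower if 0 h replicate 1 was left out, against 5 if 24 h replicate 2 was.

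**Figure D2:**
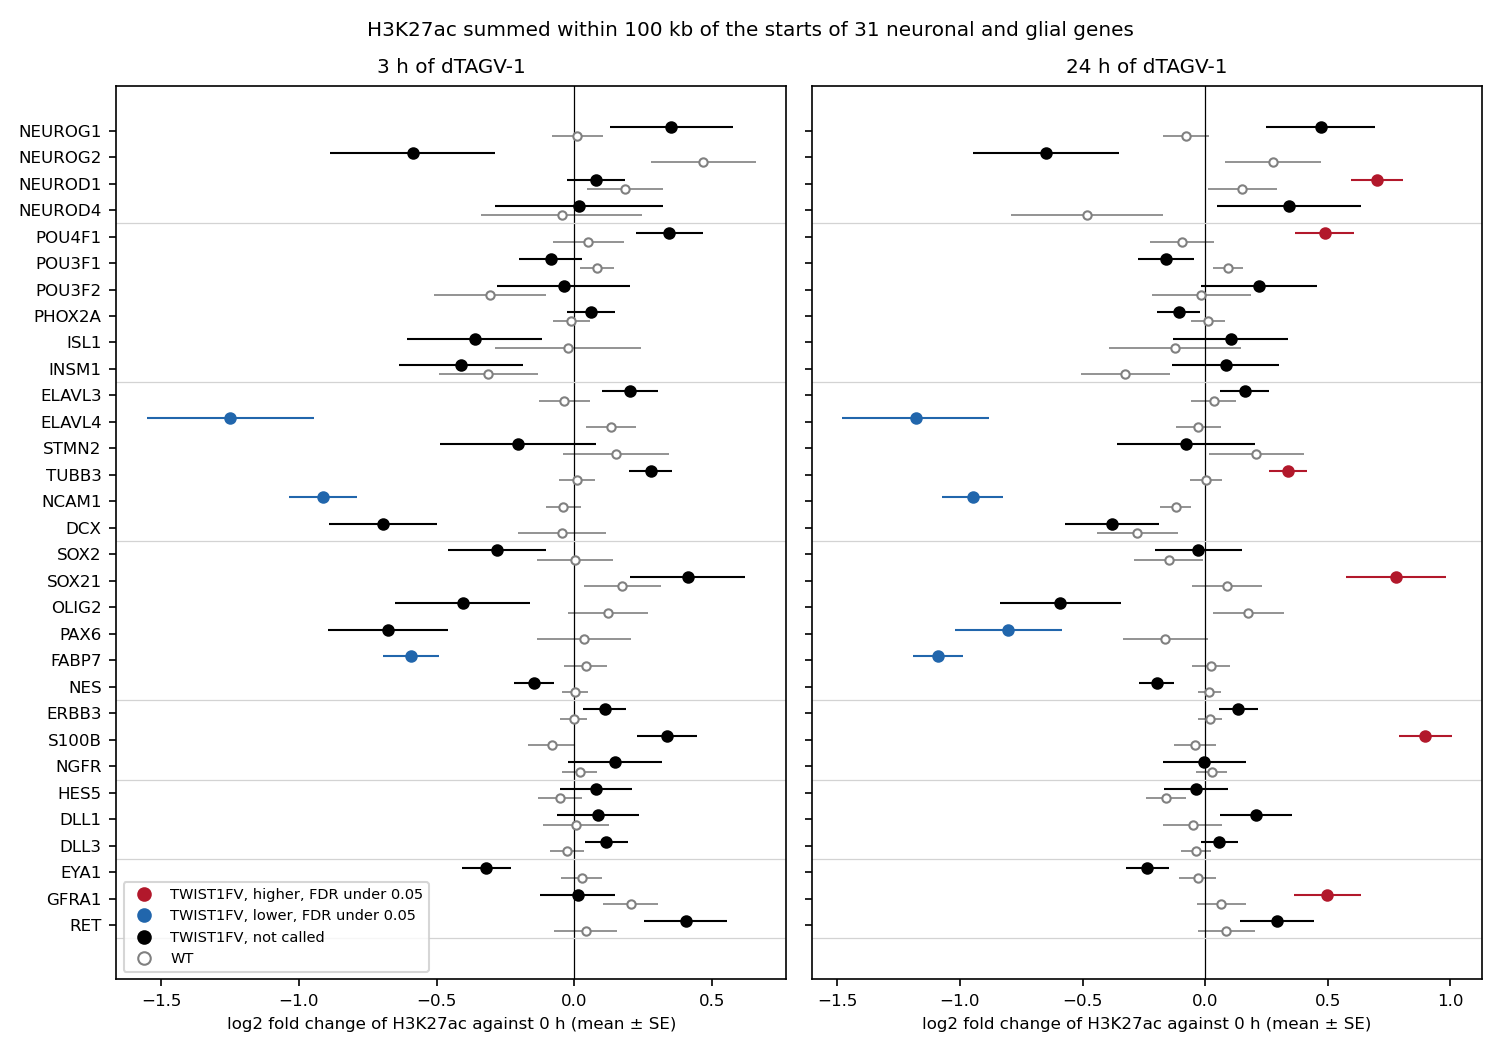
Log2 fold change of summed H3K27ac against 0 h (horizontal axis, value ± SE) at each of the 31 gene loci after 3 h (left) and 24 h (right) of dTAGV-1, for TWIST1FV (filled: red higher, blue lower at FDR under 0.05, black not called) and WT (open grey). At 24 h S100B, SOX21 and NEUROD1 were the highest called loci and ELAVL4 and FABP7 the lowest, while no WT locus was called.

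Of 37 tested regions at the proneural bHLH genes, 7 rose (18.9%, all regions 4.28%) and 6 fell (16.2%, all regions 9.49%) at 24 h. NEUROG1 gained H3K27ac and NEUROG2 lost it at the regions that were called. NEUROG1 starts neurogenesis in cranial sensory ganglia. Its region at chr5:135507966-135508963, 27500 bp from the start, in an intron of the neighbouring gene SLC25A48, measured 5.51 and 2.75 CPM at 0 h, 25.2 and 16.1 at 3 h, and 25.6 and 15.8 at 24 h. Both later times lay above both 0 h libraries, and the 6 WT libraries stayed between 1.58 and 3.9 CPM. The log2 change was 2.34 ± 0.37 (SE, n = 2 per group, FDR 0.00111) at 3 h and 2.35 ± 0.369 (FDR 0.000287) at 24 h. The region over the NEUROG1 exon itself, chr5:135534220-135535046, went from 1.22 and 3 CPM at 0 h to 8.65 and 4.17 at 3 h and 16.3 and 10.3 at 24 h. Its 24 h change was 2.61 ± 0.465 (FDR 0.000874). The exon region had 8 and 24 counts at 0 h. It passed the low-count filter through later libraries, so it could be called only as a rise. WT libraries ranged from 0.595 to 2.19 CPM over this exon, with uncalled log2 changes of 1.38 ± 0.722 (3 h) and 1.1 ± 0.743 (24 h). A rise particular to TWIST1FV was not shown here. The TWIST1FV change minus the WT change was 1.53 ± 0.865 (24 h, FDR 0.392) and 0.207 ± 0.896 (3 h, FDR 0.959). The region chr5:135488798-135489298 was near the detection limit at 0 h (0.612 and 0.5 CPM, 4 counts in each library) and reached 2.67 and 4.87 CPM at 24 h (log2 change 2.73, FDR 0.0087). It passed the low-count filter through the later libraries, so it could be called only as a rise. None of these regions held a TWIST1 peak. The summed locus measured 96.5 and 82.1 CPM at 0 h and 152 and 108 at 24 h and was not called within 100 kb (log2 change 0.47, FDR 0.201). Within 50 kb it was called, at 1.15 at 3 h (FDR 0.0341) and 1.43 at 24 h (FDR 0.00791).

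At NEUROG2, which promotes sensory and cortical neurogenesis, the TWIST1-bound region chr4:112536100-112536600, shown above, held 9.19 and 2.75 CPM at 0 h and 0.728 and 0.271 at 24 h. The 0 h libraries differed from each other by more than the 3 h libraries did (0.586 and 1.94), but both 24 h values lay below them. The log2 change at 24 h was -3.49 ± 0.721 (FDR 0.00294), and the 6 WT libraries ranged from 2.68 to 4.1 CPM. The NEUROG2 region had 60 and 22 counts at 0 h, and 6 and 2 at 24 h. It passed the low-count filter through the 0 h libraries, so it could be called only as a fall. Without 0 h replicate 1 the call was lost (-2.42, FDR 0.0881). Its summed locus was not called at 24 h (-0.65 ± 0.298, FDR 0.193). NEUROD4, a later-acting bHLH factor, had 1 region tested of 13, which rose at 24 h (log2 change 2.14, FDR 0.0412).

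NEUROD1, a driver of terminal neuronal differentiation, had 2 regions that rose and 4 that fell at 24 h. The 2 that rose are intergenic and lie 98731 and 99559 bp upstream. The first, chr2:181779308-181779808, with no TWIST1 peak, had 92 and 84 counts at 0 h (14.1 CPM in replicate 1), and went to 26.5 and 28.1 CPM at 3 h and 52 and 63.6 at 24 h (log2 change 2.24 ± 0.224, FDR 3.59e-06). The second, chr2:181780031-181780742, with a TWIST1 peak, went from 27.9 and 23.5 to 54.5 and 54.6 and then 85.2 and 90.1 CPM (1.77 ± 0.176, FDR 3.29e-06). In both, every later library was above every earlier one. Downstream, in an intron of CERKL and 62485 bp from the start, the TWIST1-bound region chr2:181617782-181618282 fell from 18.7 and 12.7 CPM to 1.47 and 3.61 at 3 h and 0.728 and 1.35 at 24 h. That was the largest fall among the named regions, at -3.91 ± 0.488 (FDR 3.18e-05) at 24 h, while WT stayed between 9.79 and 17 CPM. The summed locus rose from 108 and 102 CPM at 0 h to 165 and 194 at 24 h (log2 change 0.70 ± 0.105, FDR 0.00293), but within 50 kb, without the distal pair, the value was -0.706 and not called (FDR 0.0915).

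**Figure D3:**
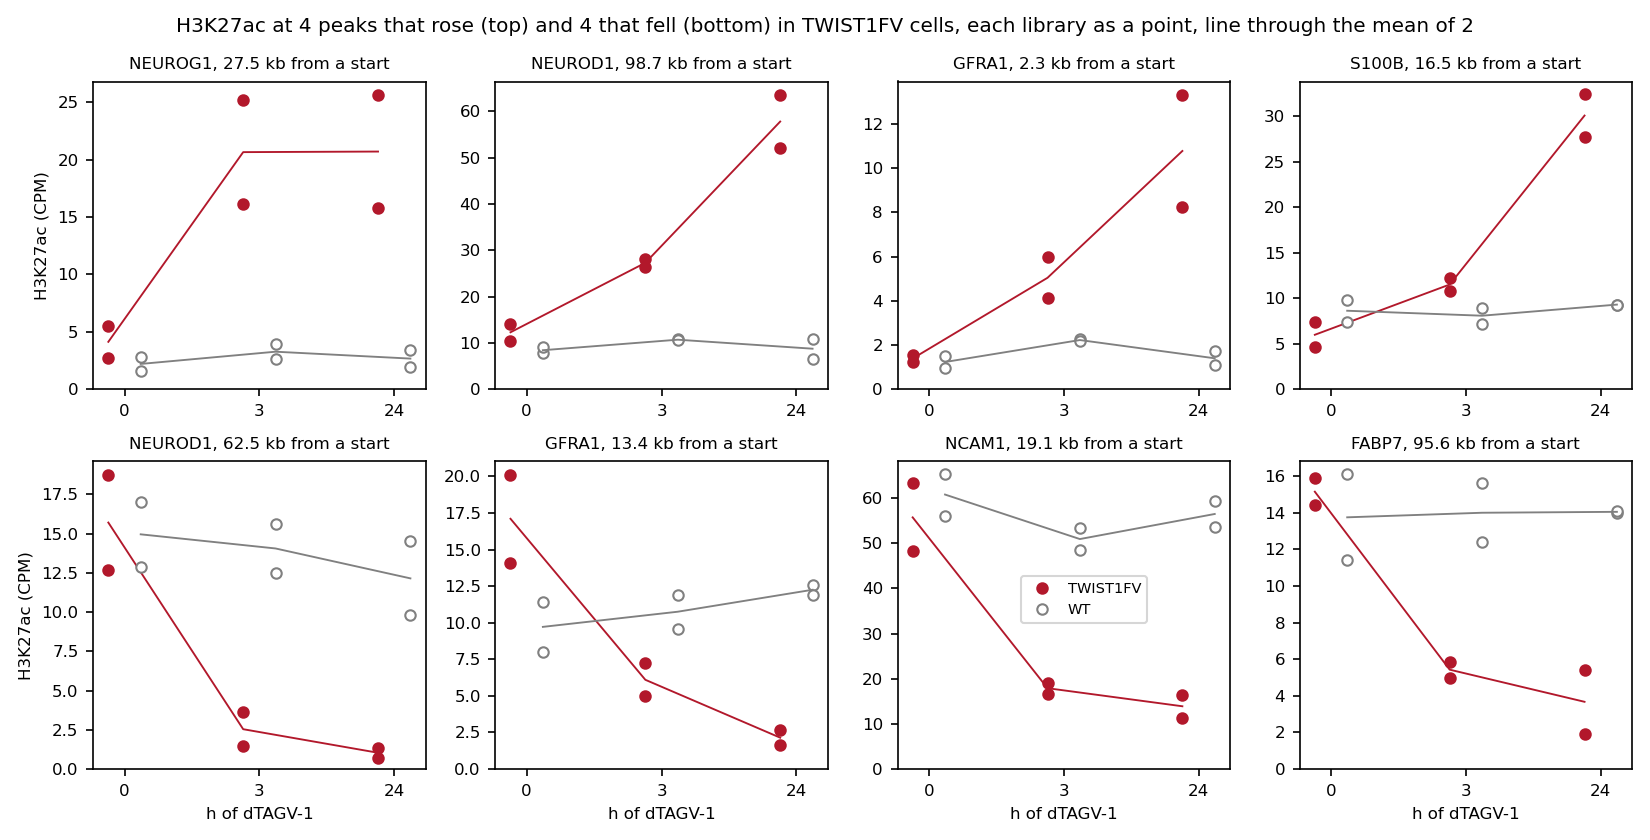
H3K27ac level (CPM, vertical axis) in each library at 0, 3 and 24 h of dTAGV-1 (horizontal axis, not to scale) for 4 regions that rose (top row) and 4 that fell (bottom row), in TWIST1FV (filled) and WT (open), with lines through the mean of the 2 replicates. In each panel both TWIST1FV libraries at 24 h lie outside the range of those at 0 h, and the WT libraries do not follow them.

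At the other neuronal transcription factors, 1 of 75 tested regions rose (1.33%, all regions 4.28%) and 5 fell (6.67%, all regions 9.49%) at 24 h. POU4F1 is a POU factor of sensory neurons. Its region chr13:78630402-78630902, in an intron of OBI1, held 2.45 and 3.5 CPM at 0 h, 9.68 and 9.45 at 3 h, and 10.7 and 7.85 at 24 h. Libraries of 0 h did not overlap the later ones, with a log2 change of 1.67 ± 0.369 (FDR 0.0122) at 3 h and 1.62 ± 0.367 (FDR 0.00585) at 24 h. The summed POU4F1 locus rose from 43.6 and 48.7 CPM to 62.5 and 73.7 at 24 h (0.49 ± 0.121, FDR 0.0273). At PHOX2A, a homeodomain factor of autonomic neurons, the bound region chr11:72254556-72255056 fell from 5.82 and 4.25 CPM at 0 h to 0.97 and 0.812 at 24 h (-2.47 ± 0.496, FDR 0.00242). WT held 2.92 to 5.74 CPM there. POU3F1, a factor of Schwann cell maturation, had 3 of 36 tested regions lower at 24 h, with log2 changes from -0.56 to -1.69. ISL1, INSM1 and POU3F2 had 1, 8 and 3 tested regions, none called.

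Of 104 tested regions at the neuronal structural and RNA-binding genes, 9 fell (8.65%) and 4 rose (3.85%) at 24 h, shares near those of all regions (9.49% and 4.28%). At NCAM1, the neural cell adhesion molecule, 4 of 28 tested regions fell and none rose at 24 h, all bound by TWIST1. The strongest at 3 h, chr11:113211799-113212690 in an NCAM1 intron, went from 63.2 and 48.2 CPM at 0 h to 19.1 and 16.7 at 3 h and 16.4 and 11.4 at 24 h. Its log2 change was -1.64 ± 0.236 (FDR 0.000511) and then -2.0 ± 0.24 (FDR 2.13e-05). The summed NCAM1 locus fell from 341 and 278 CPM to 175 and 179 at 3 h and 159 and 180 at 24 h (-0.95 ± 0.124, FDR 0.00162). ELAVL4, a neuronal RNA-binding protein, fell as a locus from 127 and 101 CPM to 66.9 and 35.7 at 3 h (-1.25 ± 0.303, FDR 0.036) and 62.2 and 43.4 at 24 h (-1.18 ± 0.3, FDR 0.0306). DESeq2 did not call the ELAVL4 locus at either time (FDR 0.0638 and 0.0658). The 3 h call was also lost without 0 h replicate 1 (-1.03, FDR 0.277), 0 h replicate 2 (-1.45, FDR 0.0942) or 3 h replicate 2 (-0.833, FDR 0.131). Over all alternatives its FDR ranged from 1.27e-08 to 0.277 at 3 h and from 1.53e-08 to 0.239 at 24 h. At DCX, a microtubule-binding protein of migrating neurons, the bound intronic region chrX:111312647-111313441 fell from 5.97 and 5.5 CPM to 1.17 and 1.11 at 3 h (-2.31 ± 0.484, FDR 0.00851). It stood at 1.94 and 1.08 at 24 h, while a region 2033 bp from a DCX start rose (2.14 ± 0.662, FDR 0.0397). The intronic region had 39 and 44 counts at 0 h and 8 in each 3 h library. It passed the low-count filter through the 0 h libraries, so it could be called only as a fall.

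TUBB3, the neuronal beta-tubulin, differed from these. Its locus rose from 229 and 248 CPM at 0 h to 322 and 311 at 24 h (0.34 ± 0.0776, FDR 0.0202), and 3 of 29 tested regions rose, 1 of them 175 bp from a TUBB3 start. The TUBB3 window also holds MC1R and other genes, and 5 of its 33 regions had TUBB3 as the nearest protein-coding gene. ELAVL3 had 1 of 22 tested regions lower, and STMN2 none of 8 called.

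Of 69 tested regions at the neural progenitor genes, 9 fell (13%, all regions 9.49%) and 1 rose (1.45%, all regions 4.28%) at 24 h. FABP7, a fatty acid binding protein of radial glia and early Schwann lineage cells, fell as a locus from 148 and 143 CPM at 0 h to 97.9 and 109 at 3 h and 67.1 and 76.4 at 24 h (-1.09 ± 0.103, FDR 0.000373). The 3 time points did not overlap. Its distal bound region chr6:122874950-122875725 fell from 14.4 and 15.9 CPM to 1.94 and 5.41 at 24 h (-2.05 ± 0.403, FDR 0.002), with WT between 11.4 and 16.1. Only 2 of the 19 FABP7 regions had FABP7 as the nearest protein-coding gene. PAX6, an eye and forebrain regulator, fell as a locus from 27.9 and 28.1 CPM to 20 and 13.5 at 24 h (-0.80 ± 0.217, FDR 0.0385). NES encodes the intermediate filament nestin. Its window had the highest summed level of the 31 (1352 and 1370 CPM at 0 h). Of its 47 regions, 7 had NES as the nearest protein-coding gene. The NES locus was not called (-0.20 ± 0.0728, FDR 0.109), although 4 of its 36 tested regions fell. SOX21, a SoxB repressor, rose as a locus from 31.5 and 32.9 CPM to 65.5 and 50.3 (0.78 ± 0.205, FDR 0.0342), with a single called region 70901 bp from the start and nearest to GPR180. Within 50 kb the SOX21 change was 0.39 (FDR 0.437). SOX2 had no region called of 10 tested, and OLIG2 1 of 4, lower.

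Of 89 tested regions at the glial and Schwann cell precursor genes, 8 rose (8.99%, all regions 4.28%) and 4 fell (4.49%, all regions 9.49%) at 24 h. S100B, a calcium-binding protein of glia, showed the largest rise among called loci, from 94.3 and 99.8 CPM at 0 h to 130 and 133 at 3 h and 205 and 174 at 24 h (0.90 ± 0.107, FDR 0.00104). None of its 4 called regions held a TWIST1 peak. The region chr21:46621443-46621943, nearest to PRMT2, went from 4.59 and 7.37 CPM to 10.8 and 12.2 and then 32.4 and 27.7 (2.31 ± 0.289, FDR 3.16e-05). At the S100B start region, chr21:46604955-46605760, the TWIST1FV change minus the WT change was 0.88 ± 0.632 at 24 h (FDR 0.548). A rise particular to TWIST1FV was thus not shown there. In TWIST1FV alone the region was called, from 1.84 and 3.75 CPM at 0 h to 3.08 and 3.75 at 3 h and 6.07 and 8.66 at 24 h (1.37 ± 0.426, FDR 0.0408). That call was lost under DESeq2 (FDR 0.0647), without the low-count filter (FDR 0.0739), without 0 h replicate 1 (0.946, FDR 0.377) and without 24 h replicate 2 (1.12, FDR 0.259).

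NGFR, the low-affinity neurotrophin receptor used to mark crest cells, rose at its start while its locus as a whole did not change beyond its error. The start region chr17:49495066-49498463 held 44.9 and 44.3 CPM at 0 h, 77.6 and 84 at 3 h, and 95.2 and 79 at 24 h. Its log2 change was 0.857 ± 0.164 (FDR 0.00457) at 3 h and 0.966 ± 0.164 (FDR 0.000572) at 24 h. Upstream, chr17:49472195-49472980 rose at 3 h from 21.6 and 19.6 to 48.4 and 33.8 CPM (0.995 ± 0.238, FDR 0.0195) and stood at 25.8 and 19.2 at 24 h. By contrast 3 of the 45 tested regions fell at 24 h, all bound by TWIST1, and the locus sum was -0.0026 ± 0.17 (FDR 0.994). ERBB3, the neuregulin receptor of crest and Schwann cell precursors, had 2 regions higher, 36 and 1432 bp from annotated starts (1.36 ± 0.273, FDR 0.00247, and 0.917 ± 0.207, FDR 0.00567), and 1 lower.

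**Figure D4:**
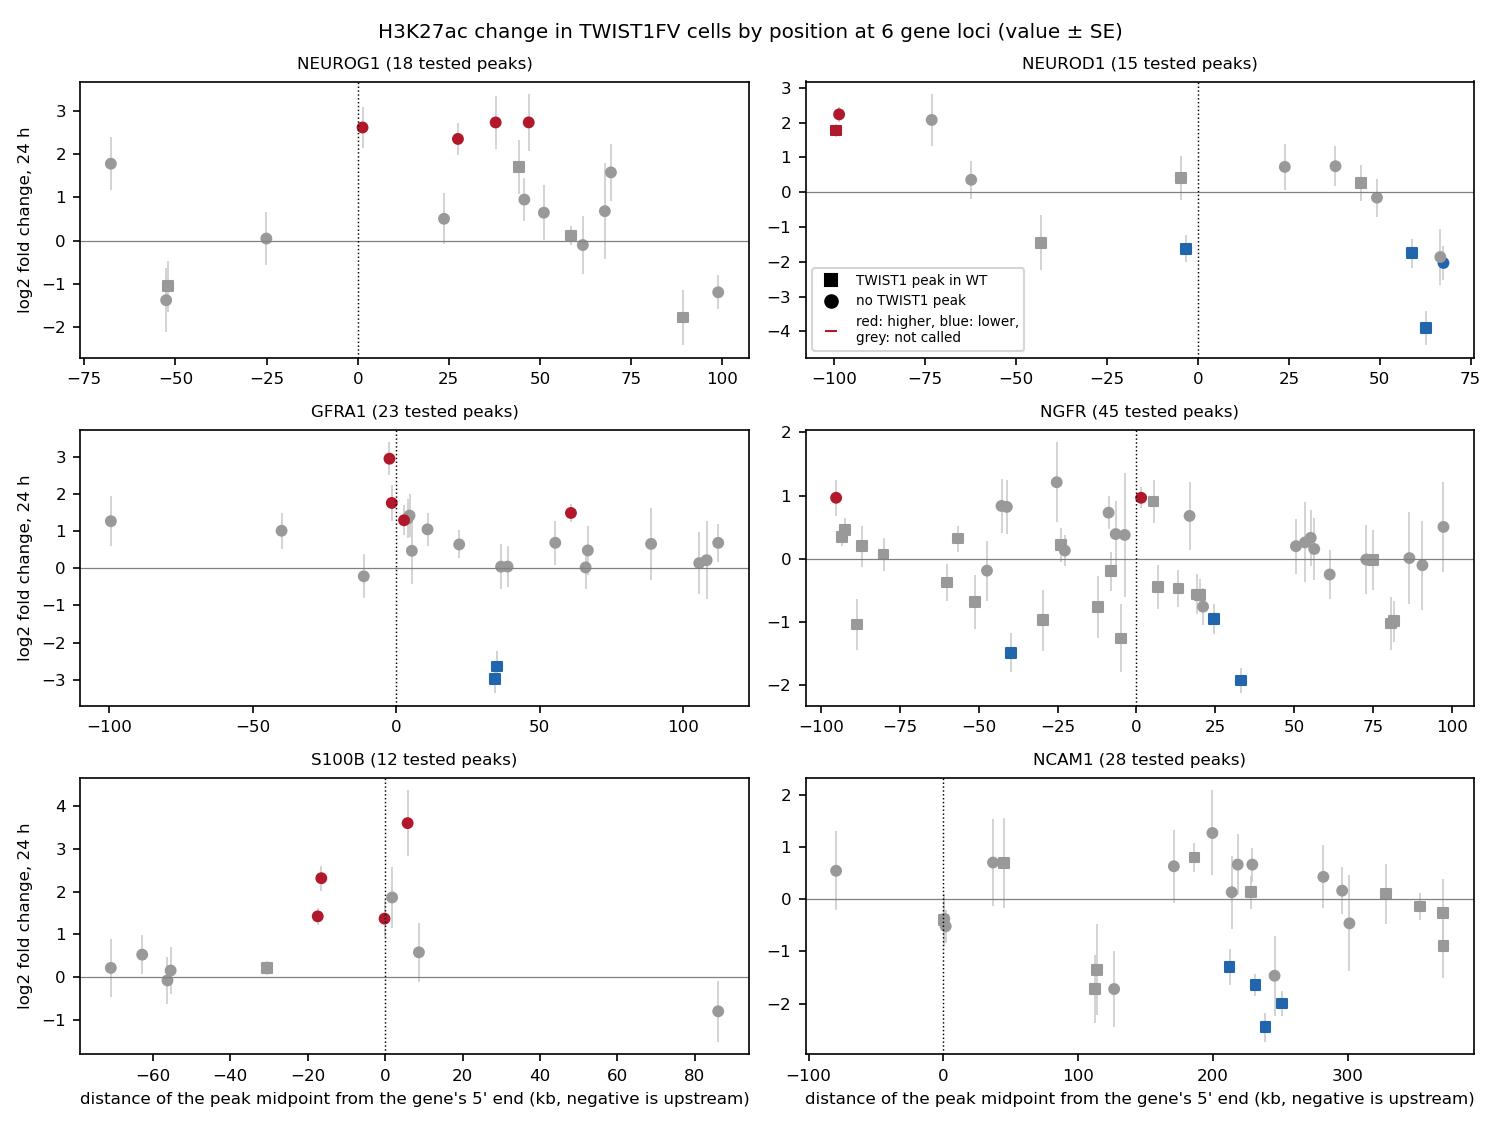
Log2 fold change of H3K27ac at 24 h in TWIST1FV (vertical axis, value ± SE) for every tested region at 6 of the loci, by distance of the region midpoint from the gene's 5′ end (horizontal axis, kb, negative is upstream). Squares held a TWIST1 peak in WT and circles did not, and the called regions that rose (red) are circles apart from 1 at NEUROD1 while those that fell (blue) are squares apart from 1 at NEUROD1.

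In the Notch pathway, 1 of 57 tested regions rose (1.75%, all regions 4.28%) and 0 fell (all regions 9.49%) at 24 h. DLL1, a Notch ligand, had 1 of 20 tested regions higher at 24 h, chr6:170344787-170345287 in a FAM120B intron, from 1.22 and 0.999 CPM at 0 h to 2.18 and 6.22 (1.90 ± 0.57, FDR 0.0333). That call was lost under DESeq2 (FDR 0.0694), and without 24 h replicate 2 the change was 0.993 (FDR 0.561). The DLL1 region had 8 counts in each 0 h library and passed the low-count filter through later ones, so it could be called only as a rise. Its TWIST1FV change minus the WT change was 1.78 ± 1.03 at 24 h and was not called (FDR 0.41). HES5, a repressor induced by Notch, had none of 13 called. DLL3, a divergent Notch ligand, had none of 24. Its start region chr19:39497760-39499629 lies under 1 of the strongest TWIST1 peaks at these genes (fold enrichment 66.5, -log10 q 314). It measured 98.8 and 80.5 CPM at 0 h, 116 and 65.2 at 3 h, and 90.6 and 52.9 at 24 h, so the groups overlapped (log2 change at 24 h -0.318 ± 0.25, FDR 0.483). Thus a strong TWIST1 peak with the same arrangement of E-box and homeodomain site stood over a start whose change did not pass the test.

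Of 81 tested regions at the placodal and GDNF receptor genes, 8 rose (9.88%, all regions 4.28%) and 6 fell (7.41%, all regions 9.49%) at 24 h. At GFRA1, the GDNF co-receptor of enteric crest, the same arrangement stood over regions that fell. The peak there (fold enrichment 64.6, -log10 q 289) covers chr10:116241469-116241969 and chr10:116241973-116242793, both in a GFRA1 intron. The first fell from 15.3 and 11 CPM at 0 h to 2.93 and 5.28 at 3 h and 2.67 and 1.49 at 24 h (-2.64 ± 0.425, FDR 0.00036). The second fell from 20.1 and 14.1 to 4.98 and 7.22 and then 2.67 and 1.62 CPM (-2.97 ± 0.389, FDR 5.18e-05). They are neighbouring stretches under 1 peak and not independent. Near the GFRA1 5′ end, regions without a TWIST1 peak rose. The strongest, chr10:116278898-116279398, 2345 bp from the start, went from 1.53 and 1.25 CPM to 4.11 and 5.97 at 3 h and 8.25 and 13.3 at 24 h (2.94 ± 0.441, FDR 0.000185). That region had 10 counts in each 0 h library. It passed the low-count filter through later ones, so it could be called only as a rise. The summed locus went from 92.2 and 79.8 CPM at 0 h to 123 and 133 at 24 h (0.50 ± 0.136, FDR 0.0392).

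RET, the GDNF receptor kinase, had 1 of 15 tested regions higher (1.57 ± 0.484, FDR 0.0388) and its locus was not called (0.29 ± 0.151, FDR 0.241). EYA1, a placodal co-activator, had 3 regions higher and 4 lower of 43 tested, and its locus was not called (-0.24 ± 0.0893, FDR 0.119). Its unbound region chr8:71192673-71193173 fell from 5.51 and 4.75 CPM to 1.21 and 0.541 (-2.50 ± 0.528, FDR 0.00348). WT held 1.7 and 2.08 CPM there at 0 h and 1.96 and 1.37 at 24 h. The TWIST1FV change minus the WT change was -2.33 ± 0.789 at 24 h and was not called (FDR 0.0722).

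Whether a region held a TWIST1 peak separated the regions that fell from those that rose. At 24 h, 36 of the 39 that fell were bound (92.3%) and 3 of the 30 that rose (10%), against 156 of the 512 tested (30.5%). At 3 h it was 14 of 15 and 2 of 8. Over all regions of the genome tested, 92.1% of those that fell and 16% of those that rose at 24 h were bound, with 30.3% of all tested, so the pattern was not particular to these loci. The bound members had a median log2 change of -0.255 at 3 h and -0.47 at 24 h, and the unbound 0.252 and 0.334. The corresponding medians over all regions were -0.507 and -0.735 for bound, and 0.182 and 0.228 for unbound. Of the 30 regions that rose at 24 h, 5 were within 1 kb of a start of their gene, at NGFR, TUBB3, GFRA1, ERBB3 and S100B, and none of the 39 that fell was, against 36 of the 512 tested. Within 1 kb of a start of any gene were 6 of the 30 (20%), 2 of the 39 (5.13%) and 140 of the 512 (27.3%), against 8.83% of all regions that rose, 6.95% of those that fell and 19% of all tested. AP2a overlapped 8 of the 30 that rose (26.7%) and 12 of the 39 that fell (30.8%) with either antibody, against 145 of the 512 (28.3%). Over all regions, the Novus antibody gave 15.6% of those that rose, 21.2% of those that fell and 17.1% of all tested. The Cell Signaling antibody gave 18.4%, 23.2% and 18.7%.

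**Figure D5:**
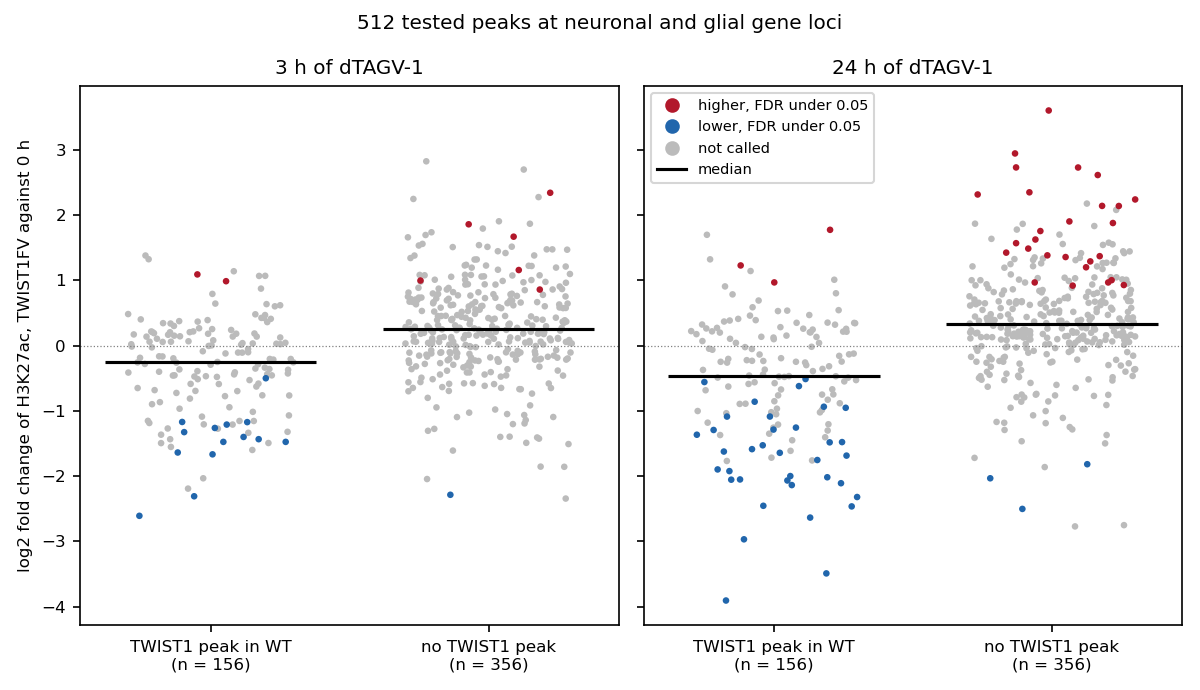
Log2 fold change of H3K27ac in TWIST1FV against 0 h (vertical axis) for each of the 512 tested member regions, split by whether a TWIST1 peak was present in both WT lists, at 3 h (left) and 24 h (right), with the median as a bar. Most regions that fell (blue) are in the bound column and most that rose (red) in the unbound column, and medians at 24 h are -0.47 and 0.334.

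The response was set against that of WT cells given the same dTAGV-1, by the interaction of line and time over 12 libraries and 598 tested members. At 3 h, 1 member region had a higher response in TWIST1FV than in WT (background 0.305% of 148460), the NGFR start, and 10 had a lower one (background 2.48%). At 24 h, 15 were higher (background 1.49%) in 10 genes and 28 lower (background 5.85%) in 14 genes. All 28 that were lower held a TWIST1 peak, as did 1 of the 15 that were higher. The share bound was not taken over all regions with such a difference, so these counts have no background. In TWIST1FV alone, 27 of the 28 and 13 of the 15 were also called. The largest difference, 5.4 at INSM1 (FDR 0.044), was at a region not called in TWIST1FV alone. The total of 43 at 24 h was 28 without TWIST1FV 0 h replicate 1, 28 without WT 24 h replicate 1, 27 without WT 24 h replicate 2 and 26 without WT 0 h replicate 2. The total of 11 at 3 h was 6 without TWIST1FV 0 h replicate 1, and 7 without WT 0 h replicate 1 or without WT 3 h replicate 2. In WT alone no member region was called at 3 or 24 h (background 0% at both), and none by DESeq2. At an unadjusted p under 0.05 there were 9 and 14 of 494, against 4138 and 4323 of all 120860 regions. No WT locus was called either (background 0%), and none by DESeq2. At an unadjusted p under 0.05 there were 1 and 0 of 31 loci, against 627 and 526 of all 19588 gene windows.

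Treatment of the lines tagged on ALX1, PRRX1 or MSX1 gave no called change at these loci in the main fits. Those fits did not pair samples by clone. Loss of the tagged protein in these lines was not checked here. In ALX1FV, 0 of 437 tested member regions were called at 3 h and at 24 h (background 0% at both). At an unadjusted p under 0.05 there were 6 and 9, against 1780 and 2032 of all 110426 regions tested. In PRRX1FV 0 of 467 were called (background 0% and 0.000827%), with 16 and 17 under that p, against 4727 and 5117 of all 120925. In MSX1FNV 0 of 436 were called (background 0.00179% and 0.00448%), with 9 and 18 under it, against 3181 and 3982 of all 111631. In ALX1FV ALX4- 0 of 471 were called (background 0% and 0.0279%), with 19 and 30 under it, against 5579 and 7734 of all 122000. DESeq2 called none in these 4 lines. No locus was called in them either, by edgeR or DESeq2, against a background of 0% of gene windows, or 0.0102% in ALX1FV ALX4- and MSX1FNV at 24 h. At an unadjusted p under 0.05 it was 0 and 1 loci in ALX1FV, 2 and 1 in PRRX1FV, 2 and 1 in MSX1FNV, and 3 and 4 in ALX1FV ALX4- at 3 and 24 h. Among all gene windows it was 168 and 260 of 19558 in ALX1FV and 612 and 773 of 19579 in PRRX1FV. It was 476 and 725 of 19556 in MSX1FNV and 1241 and 2061 of 19557 in ALX1FV ALX4-. In ALX1FV ALX4-, where same-numbered samples share a clone, the fit with the replicate block called 1 region and 2 loci at 24 h. Their direction, and the share of all regions and windows called in that fit, are not reported here. Whether a listed locus gained H3K27ac in that line thus stays undecided. The differences between these lines and TWIST1FV were not tested.

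The lowest and highest locus changes at 24 h were -0.319 (ELAVL4) and 0.708 (ISL1) in ALX1FV, -0.368 (ELAVL4) and 0.243 (SOX21) in ALX1FV ALX4-, -0.462 (ISL1) and 0.247 (SOX2) in PRRX1FV, and -0.479 (STMN2) and 0.428 (ISL1) in MSX1FNV. ISL1, a factor of sensory and motor neurons, is a weakly acetylated locus, with 7.04 and 9.99 CPM in TWIST1FV at 0 h. None of these values passed the test in the main fits.

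Cells without ALX4 were compared with ALX1FV cells, both at 0 h of dTAGV-1. No member region of 535 tested was higher (background 0.647%) and 7 were lower (1.31%, background 1.68%). They lay at NCAM1 (2 regions), NES, PHOX2A, ERBB3, EYA1 and NEUROG2. At an unadjusted p under 0.05 there were 64 of 535 in either direction, against 18006 of all 139815 regions. DESeq2 called 8 in all. The NCAM1 intron region chr11:113211799-113212690, which also fell after TWIST1 loss, held 30.6 and 45.5 CPM in ALX1FV and 15.6 and 17.2 in ALX1FV ALX4- (-1.29 ± 0.24, FDR 0.00399). At chr1:156708997-156709497, given to NES but 3431 bp from CRABP2, a retinoic acid binding protein gene, the values were 82.7 and 87.5 against 58 and 54.3 CPM (-0.678 ± 0.13, FDR 0.00504). The region chr11:72308225-72309059, in the PHOX2A window but 58 bp from a start of CLPB, held 11.9 and 8.67 against 2.72 and 2.72 CPM (-1.99 ± 0.403, FDR 0.00782). In each the groups did not overlap. Of the 7 regions, 6 held a TWIST1 peak, 5 were also lower in TWIST1FV at 24 h, and the ERBB3 region was higher there (0.917). The same shares were not taken over all regions lower without ALX4, so these counts have no background. The lines are different clones, so clone and ALX4 cannot be told apart. The count was 0 without ALX1FV ALX4- 0 h replicate 1, 1 without its replicate 2, 2 without ALX1FV 0 h replicate 2, and 11 without ALX1FV 3 h replicate 1 or replicate 2.

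In HEK293 cells, the share of TWIST1 peaks at these loci was close to that in hCNCC, where the WT 0 h lists had 0.432 and 0.442%. With the wild-type TWIST1 plasmid and ALX4, 0.389 ± 0.0151% (SD, n = 3 lists) of peaks fell in the windows, with values from 0.377 to 0.406%. Without ALX4 it was 0.466 ± 0.0208% (SD, n = 3), from 0.45 to 0.49%. The lists did not overlap and differed by -0.0771 percentage points, but the exact two-sided permutation p was 0.1, the smallest that 3 against 3 allow. In RS4;11 lymphoblasts 286 of 70826 TWIST1 peaks (0.404%) lay in the windows.

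The proneural factor NEUROD1 was itself expressed with a V5 tag in HEK293 cells, and 34 of its 5097 V5 peaks (0.667%, 95% Wilson interval 0.478 to 0.931%) lay at 15 of the 31 genes. The list from cells given pUC19, with no factor, had 9 of 463 peaks there (1.94%, 1.03 to 3.65%), so the share was not above this background. Of the 34 peaks, 29 were on hCNCC accessible regions and 11 on hCNCC TWIST1 peaks. DLL3 had 7, of which 1 lay over the start region shown above (fold enrichment 9.94, -log10 q 51.7), so that TWIST1 in hCNCC and NEUROD1 in HEK293 both had a peak there. Of the 186 hCNCC TWIST1 peaks, 11 (5.91%, 3.33 to 10.3%) overlapped a NEUROD1 peak, against 3.64% of all TWIST1 peaks. The NEUROD1 list also held a peak over the NEUROD1 gene, chr2:181677980-181678661 (fold 1.58, -log10 q 150), which was in both lists from cells given that plasmid and in 6 of 31 lists from cells without a NEUROD1 sequence in any plasmid. A peak over PHOX2A, chr11:72239860-72241281 (fold 3.77, -log10 q 52), was in the 1 list from cells given the PHOX2A plasmid and in 0 of 42 others. Plasmid and genomic copies cannot be told apart at these genes.

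A further list of 31 neuronal and glial genes outside the 31 was tested in the same way. At 3 h none of these loci was higher (all gene windows 1.7%) and 3 were lower (all 9.08%), among them ST18 (-1.61) and NEUROD6 (-0.54). At 24 h 3 were higher (all 4.24%), among them GAP43 (0.66), a growth cone protein of neurons, and 3 were lower (all 13.4%), among them ST18 (-1.34) and NEUROD6 (-0.47). The medians were -0.0478 and -0.0159, against 0.00732 and 0.00566 for all gene windows.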

How the data were processed

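The H3K27ac files hold, as deposited, whole-number counts of reads over hCNCC ATAC-seq peaks, 1 table for each of 6 lines. In every library 76.7 to 81.5% of counts of 20 or more were even. The peak lists hold the authors' fold enrichment and -log10 q per peak, per sample, on hg38. The submitters' processing notes name Bowtie2 2.4.1, SAMtools 1.10, MACS2 2.2.7.1 and deepTools 3.5.0 without their roles. For the counting tool, and for the control and threshold of the peak calls, the labels were silent (not given in the sources used). The labels name a mouse spike-in for TWIST1FV and WT, which was not used, so a change shared by all regions would not be seen.

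Each table was fitted whole with edgeR 4.0.16 and limma 3.58.1 in R 4.3.3 (filterByExpr, TMM, quasi-likelihood F-test), with Benjamini-Hochberg adjustment over every region tested and a threshold of 0.05. The filter asked for enough counts in as many libraries as the smallest group held. A region low at 0 h could thus enter through later libraries and be called only as a rise. One low at later times could enter through 0 h libraries and be called only as a fall. Shares of regions that rose or fell, among members and among all regions, may include such regions. All groups of a line shared 1 dispersion estimate. TWIST1FV against WT was an interaction of line and time, and ALX1FV ALX4- was set against ALX1FV at 0 h in 1 fit of both tables. Gene windows were counts summed over regions within 100 kb of a GENCODE 44 start of each protein-coding gene, so windows of neighbours overlap. CPM were computed from TMM-scaled library sizes. A region was bound by TWIST1 where it overlapped, by at least 1 bp, a peak found in both WT lists at 0 h. Shares have 95% Wilson intervals from scipy 1.17.1 under Python 3.11.15. DESeq2 1.42.0, library size scaling, no low-count filter, a replicate block, a 50 kb window and each library left out were the alternatives. The code was tested on simulated data.

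Regions were named as up to 6 called members per time and direction with the largest change above the median level and the same direction in both replicates, at most 2 per gene, plus start regions. In the other comparisons up to 3 were named by FDR. Further called regions and the DLL3 start were named after their values were seen. The members and lists were chosen with earlier results of these data known. Same-numbered samples of ALX1FV, PRRX1FV and ALX1FV ALX4- share a clone by their labels and are paired by it. Only the fits with the replicate block took this pairing into account. Their correlations of deviations from the group means were 0.253 to 0.264 in ALX1FV, 0.0273 to 0.0367 in ALX1FV ALX4- and 0.0182 to 0.0208 in PRRX1FV. Mouse peak lists were not used, and promoter and protein sequences are not shown. Some genes of the further list of neuronal and glial genes are not reported here by name.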

Additional observations from a re-analysis of the deposited data

Results flagged for a closer look

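These results stood out because the change in TWIST1FV differed from the change in WT by a test of the difference itself, the interaction of line and time. At 3 h the difference was higher in TWIST1FV for 1 member region and lower for 10, and at 24 h higher for 15 and lower for 28. Values are differences of log2 changes, TWIST1FV minus WT.

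Among regions that rose, the 24 h differences at NEUROG1 were 2.04 (chr5:135507966-135508963) and 3.62 (chr5:135488798-135489298). They were 2.73 at GFRA1 (chr10:116278898-116279398), 2.33 at POU4F1 (chr13:78630402-78630902) and 2.2 at S100B (chr21:46621443-46621943). The distal NEUROD1 pair had 2.19 and 1.2. The NGFR start region had 0.983 at 3 h and 1.06 at 24 h.

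Among regions that fell, the NEUROD1 region in CERKL had -2.49 at 3 h and -3.6 at 24 h. DCX (chrX:111312647-111313441) had -2.61 and -1.92, and NCAM1 (chr11:113211799-113212690) had -1.36 and -1.89. The adjoining GFRA1 intron regions had -1.77 and -2.58 for chr10:116241469-116241969, and -1.59 and -3.28 for chr10:116241973-116242793. At 24 h alone the differences were -3.71 at NEUROG2, -2.94 at PHOX2A, -2.09 at FABP7 and -1.1 at NES. No cause of these differences was tested.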

How the results depend on the processing

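In TWIST1FV the replicate numbers share only a number (correlations of deviations 0.0766 to 0.14), and with the replicate block 35 regions rose and 31 fell at 3 h, 54 rose at 24 h, 6 loci rose and 8 fell at 3 h, 8 loci fell at 24 h, and 30 regions differed from WT at 3 h. In ALX1FV ALX4-, paired by clone, the block gave 1 region and 2 loci at 24 h. It moved no other count by over 1.5 times. Within 50 kb, 5 regions and 2 loci rose at 3 h, 24 regions fell at 24 h, and the NEUROD1 locus reversed to -0.706 at 24 h, as its distal pair lies outside that window. With only regions nearest to the listed gene, 24 fell at 24 h. DESeq2, and library size alone, each called 1 locus higher at 3 h. Requiring -log10 q of at least 5 gave a bound share of 16.8%.

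Leaving out 1 library at a time gave 6 to 16 regions rising and 8 to 22 falling at 3 h, 24 to 51 falling at 24 h, 1 to 5 loci falling at 3 h, 2 to 6 loci rising and 2 to 5 falling at 24 h, 6 to 16 regions differing from WT at 3 h and 26 to 45 at 24 h, 0 to 11 regions differing without ALX4, and a bound share of 23.8 to 28.4%. With 2 samples a group, the lone sample left is assumed to vary like the others. All 10 loci called at 24 h kept direction and call under library size scaling, no low-count filter and the replicate block. DESeq2 lost ELAVL4, the 50 kb window lost SOX21, PAX6 and NEUROD1, and leaving out 1 library lost 6 of the 10. In HEK293 the paired test gave p = 0.25 by an exact sign-flip test. Regions with few counts limit what could be called: 337 of 849 were not tested.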

Other observations

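In RS4;11 lymphoblasts the TWIST1 peaks at these genes were spread differently from those in hCNCC, as counts per gene. HES5 had 26 peaks in RS4;11 and 5 in each WT hCNCC list. OLIG2 had 24 against 6 and 3, and RET had 20 against 4 and 5. NEUROD4 had 9 in RS4;11 and none in hCNCC. NCAM1 had 5 against 21 and 16, and EYA1 had 11 against 22 and 21. Single lists of different depth were compared here, with no test.

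The NCAM1 window held the remaining TWIST1 peak with an E-box and a homeodomain site 4 bases apart, at chr11:113005914-113006279. Its fold enrichment was 5.68, against 64.6 and 66.5 for the peaks at GFRA1 and DLL3, and its H3K27ac changed by 0.689 at 24 h (FDR 0.689).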
